A study of Mus musculus with 18 samples.

Results

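The heart's extracellular matrix is laid down mainly by fibroblasts and is remodelled by 3 groups of enzymes and inhibitors, which were followed here in mouse ventricles after deletion of the gene for serum response factor (SRF), a transcription factor that controls contractile and immediate early genes. The genes were the proteases Adam12, Mmp2, Mmp14 and Adamts1, the inhibitors Timp1, Timp2, Timp3 and Timp4, and the lysyl oxidases Lox and Loxl1. Members were all probe sets that the platform annotation gives to these 10 genes, which came to 26 of the 45101 probe sets and 10 of the 18193 genes on the array. Of these, 23 were bright enough to be tested, among 27000 tested in all, and each of the 10 genes kept at least 1 of them. The 3 dim ones were 1421171_at of Adam12, 1437081_at of Timp2 and 1437903_at of Lox.

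The samples were cardiac ventricles of 18 male mice, 1 array per heart, with strain CR7BL6 and an age of 10 weeks in the labels. The mutants are labelled SRFHKO, and the controls were littermates carrying SRF-flex2neo. Every mouse of either genotype had received 0.7 mg tamoxifen by intraperitoneal injection on 3 days. At day 8 there were 4 SRFHKO and 2 control hearts. At day 25 there were 3 SRFHKO hearts with phenylephrine (PE), 3 SRFHKO hearts without it, 3 control hearts with PE and 3 control hearts without it. PE activates alpha-1 adrenergic receptors and is used to provoke hypertrophy; minipumps delivered 80 mg/kg/day of it from day 10 to day 25. The labels do not name the promoter that drives the recombinase, and they call the replicates biological. Each tissue sample held all cell types of the ventricle, so that fewer cells of a type and less RNA per cell cannot be told apart.

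Matrix metalloproteases cleave collagens and other matrix proteins. They are made as inactive precursors, and the membrane-anchored Mmp14 activates the secreted gelatinase Mmp2 with the help of Timp2. Adam12 is a membrane-anchored disintegrin and metalloprotease that sheds growth factors such as HB-EGF, and Adamts1 is a secreted protease that cleaves proteoglycans such as versican. The TIMPs are small secreted proteins that block the active site of these proteases. Timp3 binds to the matrix and also inhibits ADAM proteases, and Timp4 is known for its high expression in heart. Lox and Loxl1 are copper-dependent amine oxidases that start the crosslinking of collagen and elastin.

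Because the deleted factor acts through a DNA motif, the CArG box, the start regions of the genes were searched for it and for 3 general promoter motifs. RefSeq windows of assembly GRCm38.p6, covering 250 bases before to 50 bases after the gene's start, were at hand for 6 of the 10 genes: Mmp14, Adamts1 and the TIMPs. The 250 bases before the start of the 4 inhibitor genes are shown because the patterns of these genes across the groups differed within the family. Capitals mark GGGCGG on either strand.
Timp1, chrX:20869916-20870165, plus strand: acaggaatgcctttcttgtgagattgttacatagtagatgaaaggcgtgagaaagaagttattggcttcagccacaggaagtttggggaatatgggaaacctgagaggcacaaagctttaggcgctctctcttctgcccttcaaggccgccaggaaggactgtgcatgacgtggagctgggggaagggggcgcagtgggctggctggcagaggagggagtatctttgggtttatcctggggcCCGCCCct
Timp2, chr11:118355412-118355661, minus strand: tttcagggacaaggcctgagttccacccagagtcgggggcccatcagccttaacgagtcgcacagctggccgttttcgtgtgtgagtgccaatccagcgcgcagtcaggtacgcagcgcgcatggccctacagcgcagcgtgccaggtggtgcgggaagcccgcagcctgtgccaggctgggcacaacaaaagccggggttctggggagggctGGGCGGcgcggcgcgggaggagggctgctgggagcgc
Timp3, chr10:86300162-86300411, plus strand: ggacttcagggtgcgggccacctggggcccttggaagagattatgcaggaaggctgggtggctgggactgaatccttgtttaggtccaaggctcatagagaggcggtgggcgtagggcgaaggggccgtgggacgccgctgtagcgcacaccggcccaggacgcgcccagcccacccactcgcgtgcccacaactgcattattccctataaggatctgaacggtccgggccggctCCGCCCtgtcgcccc
Timp4, chr6:115252206-115252455, minus strand: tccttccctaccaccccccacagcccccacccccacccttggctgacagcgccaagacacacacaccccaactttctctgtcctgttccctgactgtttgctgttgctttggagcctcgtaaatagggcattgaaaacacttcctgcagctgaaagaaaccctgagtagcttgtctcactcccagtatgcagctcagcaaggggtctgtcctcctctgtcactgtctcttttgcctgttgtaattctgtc

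The consensus CArG box occurred in 0 of the 6 windows, against 1.63% of all 32851 windows of this length. The AP-1 motif TGANTCA occurred in 0 of the 6 windows, against 7.81% of all windows. The GC box GGGCGG occurred in 5 of the 6 windows, all but that of Timp4, against 35.7% of all windows. The TATA box TATAAA occurred in 1 of the 6, that of Adamts1, against 13.6% of all windows. Both strands were searched and no hit overlapped a hit of another motif. These shares describe the letters in the windows and say nothing about what binds there.

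Values are scaled signals, the deposited linear intensity after each array had been brought to the same trimmed mean, and differences are in log2(scaled signal + 2). Errors of differences are standard errors. All 16 cardiomyocyte markers passed the brightness filter, and their summed scaled signal ranged between 100423 and 164566 on the 18 arrays. None of them was at 0 on any array. The trimmed means before scaling differed with the groups: 75.9 to 85.4 in SRFHKO hearts with PE, 71.2 to 83.5 in SRFHKO hearts without PE, 52.5 to 75.3 in control hearts with PE and 46.6 to 68.5 in control hearts without PE. At day 8 the array control for 18S ribosomal RNA ranged between 705 and 1402 in SRFHKO hearts, against 2426 and 3069 in the 2 control hearts, without overlap. The ratio of 3' to 5' control signal for Gapdh was 0.85 to 0.94 in these SRFHKO hearts, against 1.02 and 1.01 in the control hearts. For Actb that ratio was highest of the 18 arrays in control replicate 2 of day 8, at 2.52. The part of these array differences in the day 8 results was not tested. Srf itself did not pass the test in any comparison with either probe set; where those probes lie relative to the deleted part of the gene is unknown here, so they do not check the genotype labels. Control replicate 2 of day 8 stood apart for several members and is described below.

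Few of the member probe sets passed the test in any comparison. At day 8, 0 of the 23 passed the limma test for SRFHKO against control, where 0.17% of all tested probe sets passed. An unadjusted p under 0.05 was reached by 9, all lower, against 11.8% of all. This comparison rests on 2 control hearts, of which replicate 2 stood apart for several members. At day 25 without PE, 0 of 23 passed, against 2.19% of all, and 4 had an unadjusted p under 0.05, all lower, against 17.4%. At day 25 with PE, 1 of 23 passed, against 0.93% of all and 0.411% that passed higher, and this was Adam12, which was higher in SRFHKO hearts. There 3 had an unadjusted p under 0.05, against 12.8%. PE against no PE passed for 0 of 23 in SRFHKO hearts, where 0.185% of all passed, and 5 had an unadjusted p under 0.05, against 9.82%. In control hearts it passed for 0 of 23, where 0.0259% of all passed, and 5 had an unadjusted p under 0.05, against 10.1%. The interaction of PE and genotype passed for 0 of 23, against 0.0037% of all, with an unadjusted p under 0.05 for 1, against 7.4%. The interaction of day and genotype also passed for 0 of 23, against 0.0407% of all, with an unadjusted p under 0.05 for 2, against 12.3%.

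Groups that did not overlap were counted in the same way. With PE above no PE in SRFHKO hearts there were 7 of 23 such member probe sets, against 7.31% of all, and with PE below no PE there were 0, against 8.5%. In control hearts there were 5 with PE above no PE, against 5.8% of all, and 4 with PE below, against 8.16%. For SRFHKO against control at day 8, 1 was higher without overlap, against 13.5% of all, and 6 were lower, against 8.04%. At day 25 without PE, 0 were higher, against 9.67%, and 5 were lower, against 11.6%. With PE, 1 was higher, against 8.42%, and 2 were lower, against 9.76%. The members without overlap that lay higher with PE in SRFHKO hearts were Adam12, Loxl1 and both tested probe sets of Lox and of Mmp2, with Timp1.

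The direction of the differences was less even than their size. SRFHKO minus control was negative for 17 of 23 member probe sets at day 8, with a median of -0.30, against 0.04 over all tested probe sets. It was negative for 20 of 23 at day 25 without PE, with a median of -0.20 against -0.04 over all. With PE it was negative for 18 of 23, with a median of -0.13 against -0.01 over all. Probe sets of the same gene share a transcript, so these counts are not over independent features. The day 8 count also rests on 2 control hearts. Control replicate 2 was the highest of the 18 arrays for 6 of 23 member probe sets, against 6.13% of all. Without it the day 8 differences of Timp1 and the leading Lox probe set were positive, as described below. PE minus no PE had a median of 0.25 over the members in SRFHKO hearts, against -0.03 over all, and of 0.08 in control hearts, against -0.03 over all.

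**Figure D1:**
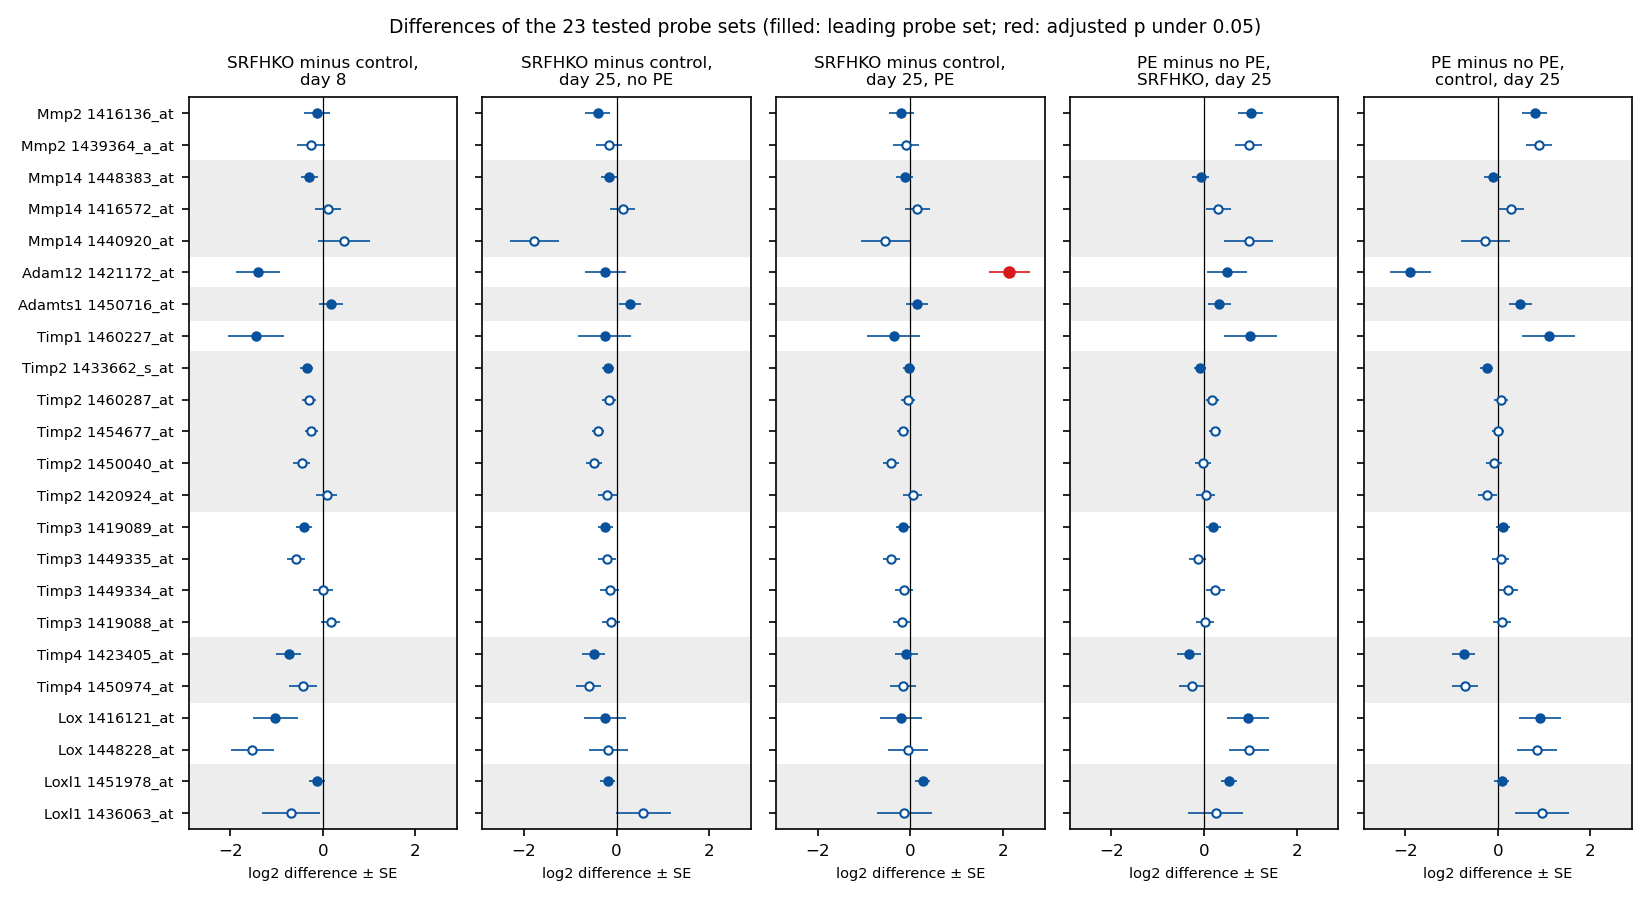
Log2 differences, with their standard errors as bars, of the 23 tested probe sets for 5 genotype and PE comparisons. Filled points are leading probe sets, the red point passed the limma test and the blue ones did not. Adam12 lies at 2.14 for SRFHKO with PE against control with PE, and Mmp2, Timp1 and Lox lie near 1 for PE against no PE in either genotype.

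Adam12 was the member with the largest difference. Its tested probe set, 1421172_at, for a gene at chr7:133883199-134225097 of GRCm38.p6, gave scaled signals of 27.6, 23.9 and 25.8 in SRFHKO hearts with PE, against 1.12, 6.21 and 7.77 in control hearts with PE. The groups did not overlap, and all 3 control hearts with PE lay below the filter limit of 9.96. With those 3 raised to the limit, Adam12 was at least 2.32-fold higher in SRFHKO hearts with PE, a bound that allows for dim signal and not for the spread between hearts. The measured log2 means were 4.79 ± 0.10 and 2.66 ± 0.89 (SD, n = 3 each). The difference of 2.14 ± 0.44 had an adjusted p of 0.0248 by limma over all 27000 probe sets. The call was lost when any 1 of the 3 SRFHKO hearts with PE was left out, where adjusted p reached 0.0899 (without replicate 2), and without control replicate 1 with PE, where the difference was 1.63 (adjusted p = 0.105). It was also lost with array brightness as a covariate (adjusted p = 0.116), and the trimmed means of these groups were given above.

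Without PE, Adam12 gave 14.7, 16.7 and 22.3 in SRFHKO hearts, against 17.4, 33.8 and 16.3 in control hearts. These groups overlapped, and the difference was -0.25 ± 0.44 (limma adjusted p = 0.821). The control hearts with PE therefore had the lowest values of the 4 groups of day 25. With the control hearts with PE raised to the limit, Adam12 was at least 1.95-fold lower with PE in control hearts, without overlap. The measured log2 difference of -1.89 ± 0.44, which rests on signal below the limit, did not pass (limma adjusted p = 0.185). PE minus no PE was 0.50 ± 0.44 in SRFHKO hearts (adjusted p = 0.784), also without overlap. The PE comparison in control hearts and the genotype comparison with PE share the control hearts with PE. The interaction, which tests the difference between the PE effects, was at least 1.46 on the log2 scale with that group raised to the limit. The measured value of 2.39 ± 0.62 did not pass (adjusted p = 0.454).

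At day 8 the Adam12 probe set gave 13.8, 6.92, 10.4 and 11.8 in SRFHKO hearts, against 19.7 and 48.1 in control hearts. The groups did not overlap, but the difference of -1.40 ± 0.47 did not pass (adjusted p = 0.208). The second Adam12 probe set, 1421171_at, was below the filter limit on 13 of 18 arrays and gave no test. At day 25 its log2 means with PE were 3.05 in SRFHKO and 3.32 in control hearts. Without PE they were 2.55 and 2.79, and all these means lay below the limit of 3.58. The genotype order with PE and the PE order in control hearts were thus reversed from the tested probe set. The PE order in SRFHKO hearts was the same. Control replicate 1 with PE, at 1.12 on the tested probe set, gave 13.8 on this one. Over the 18 arrays, the genes whose log2 levels followed Adam12 most closely were Rrm2 (Pearson r = 0.798), Snrnp40 (r = 0.761) and Vgll3 (r = 0.751). These correlations describe arrays that share groups, scaling and depth of signal.

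Mmp2, at chr8:92827290-92853421, had higher means in hearts with PE in either genotype. Its leading probe set 1416136_at gave 398, 490.2 and 359.9 in SRFHKO hearts with PE, against 304, 159 and 175 in SRFHKO hearts without it. In control hearts it gave 546, 433 and 445 with PE, against 385, 289.8 and 179 without PE. Neither pair of groups overlapped. PE minus no PE was 1.01 ± 0.27 in SRFHKO hearts (limma adjusted p = 0.152) and 0.79 ± 0.27 in control hearts (adjusted p = 0.325), and neither passed. The interaction was 0.21 ± 0.38 (adjusted p = 0.929). Averaged over the genotypes, a comparison chosen after the data had been seen, Mmp2 rose by 0.90 ± 0.19 with PE, 1.87-fold on this scale (adjusted p = 0.0333). The second probe set, 1439364_a_at, rose by 0.92 ± 0.20 (adjusted p = 0.0404). These were the 2 of 23 member probe sets that passed in this comparison, in which 0.552% of all tested probe sets passed and 0.411% passed higher.

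The Mmp2 calls were close to the threshold. The leading probe set lost its call when any 1 of 8 arrays was left out, with adjusted p up to 0.115 without SRFHKO replicate 2 with PE, and with array brightness as a covariate (adjusted p = 0.0847). The second probe set lost its call when any 1 of 9 arrays was left out, and when only the groups of day 25 entered the fit (adjusted p = 0.0706). The leading probe set stayed between 0.75 and 0.93 in those 8 fits. The fibroblast marker sum was 13623 to 17044 in SRFHKO hearts with PE and 10952 to 14519 in SRFHKO hearts without PE. It was 13861 to 14991 in control hearts with PE and 11911 to 15753 in control hearts without PE. In the averaged comparison 9 of 15 fibroblast markers were higher with PE, 1 of them past the test (Mfap5, a microfibril protein, by 0.94), and none of the 15 was at 0 on any array. Their part in the Mmp2 result was not tested. The genes whose levels followed the leading Mmp2 probe set most closely over 18 arrays were Ttl (r = 0.787), Gas8 (r = 0.785) and Larp4b (r = 0.775).

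At day 8 Mmp2 gave 497, 332, 314 and 285 in SRFHKO hearts, against 463 and 313 in control hearts, and the difference of -0.13 ± 0.28 was within the spread. SRFHKO minus control was -0.41 ± 0.27 at day 25 without PE and -0.19 ± 0.27 with PE, and both pairs of groups overlapped.

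Mmp14, at chr14:54431598-54442456, was read by 3 probe sets that did not move together. The leading one, 1448383_at, gave 116, 88.4 and 103 in SRFHKO hearts with PE, 117, 111 and 95.4 in SRFHKO hearts without PE, 110.0, 113 and 111 in control hearts with PE and 140.3, 119 and 104 in control hearts without PE. All genotype and PE pairs overlapped, with differences between -0.16 and -0.08 at day 25. At day 8 it gave 140.2, 183, 191 and 141 in SRFHKO hearts, against 162 and 245 in control hearts, which overlapped (-0.30 ± 0.19, limma adjusted p = 0.583). The day 8 levels lay above those of day 25 within each genotype, a difference between days that was not tested and that goes with brighter arrays, with trimmed means of 110.2 to 148 at day 8. A dim probe set of the same gene, 1440920_at, gave 13.1, 1.35 and 10.1 in SRFHKO hearts without PE, against 31.9, 15.7 and 38.9 in control hearts without PE. These groups did not overlap, and the difference of -1.77 ± 0.53 did not pass (limma adjusted p = 0.0852). It passed without SRFHKO replicate 1 (-2.19, adjusted p = 0.0458). The third probe set, 1416572_at, had 0.13 ± 0.27 in the same comparison.

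Adamts1, at chr16:85793827-85803113, gave 244, 573 and 252 in SRFHKO hearts with PE, against 325, 248 and 219 in SRFHKO hearts without PE. The value of 573, in replicate 2, was the highest of the 18 arrays. In control hearts it gave 309, 268 and 318 with PE, against 230.2, 164 and 252 without PE. Only the control groups did not overlap, and PE minus no PE was 0.49 ± 0.24 there (adjusted p = 0.521) and 0.33 ± 0.24 in SRFHKO hearts (adjusted p = 0.715). It was the only gene whose leading probe set had a positive SRFHKO minus control difference at day 8 (0.18 ± 0.26) and at day 25 without PE (0.30 ± 0.24), neither of which passed. The day 8 hearts gave 258, 287, 269.9 and 329 in SRFHKO mice, against 249.6 and 254 in control mice, without overlap.

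**Figure D2:**
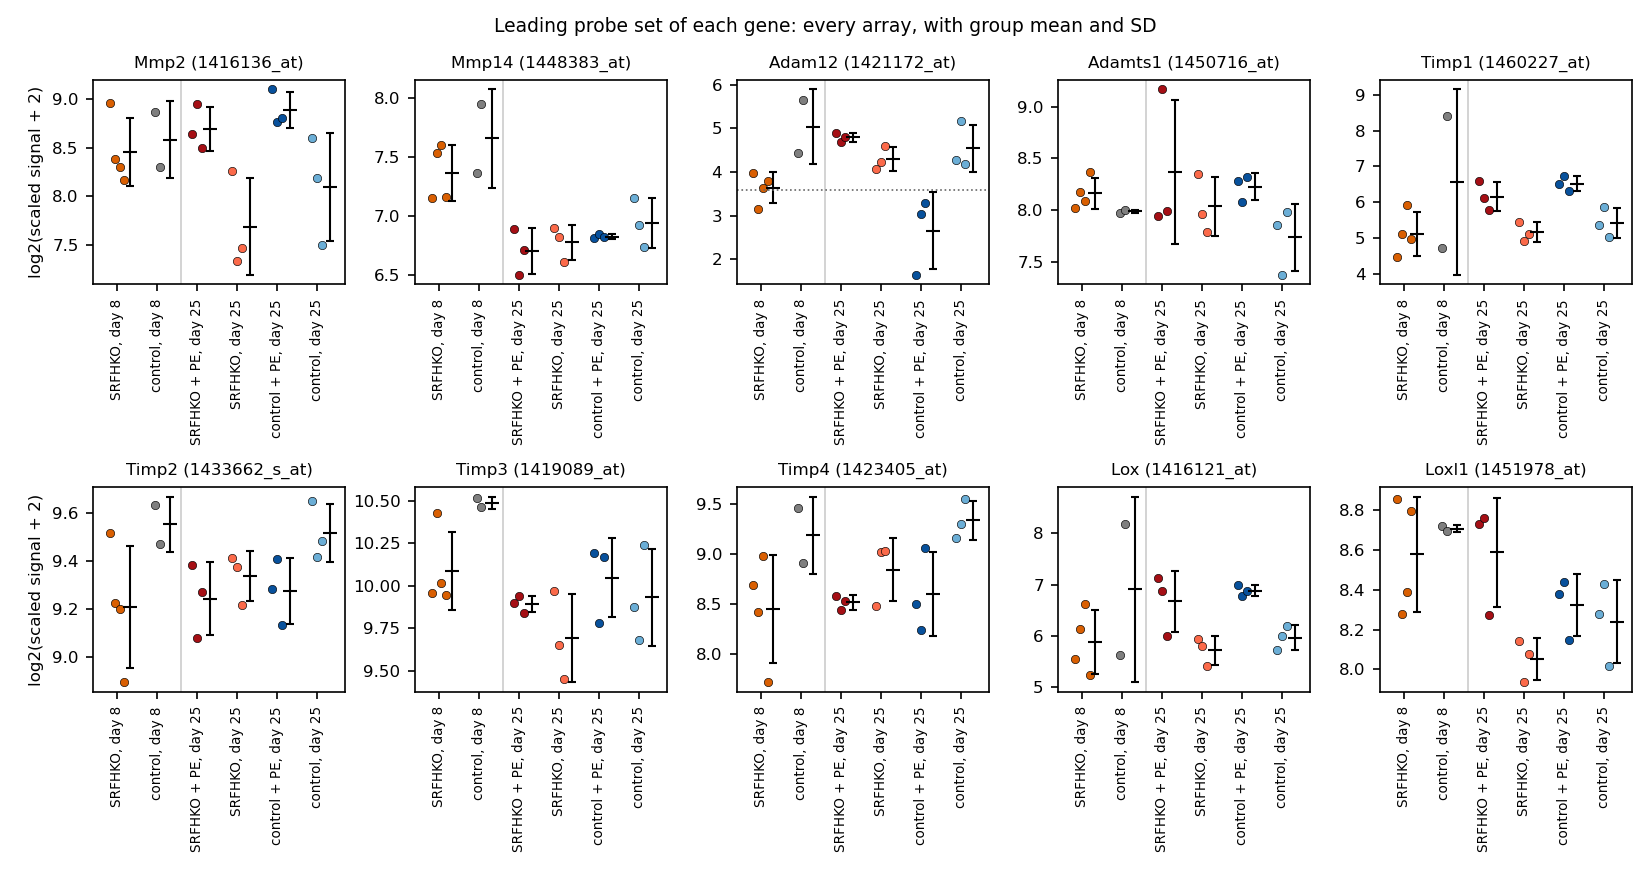
Log2(scaled signal + 2) of the leading probe set of each of the 10 genes on every array, one panel per gene, with the 6 groups along the axis, SRFHKO to the left of control and PE to the left of no PE; points are hearts, bars are group means with SD, and the dotted line in the Adam12 panel is the filter limit. Control hearts with PE lie lowest for Adam12, and 1 of the 2 control hearts of day 8 lies far above the other for Timp1 and Lox.

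Among the inhibitors, Timp1 varied most. Timp1, at chrX:20870166-20874737 and known as the TIMP induced by injury and inflammation, has 1 probe set, 1460227_at. It gave 94.4, 67.3 and 52.9 in SRFHKO hearts with PE, against 42.2, 28.3 and 32.5 in SRFHKO hearts without PE. In control hearts it gave 90.0, 104 and 77.7 with PE, against 39.3, 56.4 and 30.8 without PE. Hearts with PE lay above those without it in both genotypes. The differences were 0.996 ± 0.573 in SRFHKO hearts (limma adjusted p = 0.618) and 1.10 ± 0.57 in control hearts (adjusted p = 0.544), and averaged over genotype 1.05 ± 0.40 (adjusted p = 0.293). None passed in the fit over all 18 arrays. The averaged difference passed when only the 4 groups of day 25 entered the fit (adjusted p = 0.0231), which leaves out the day 8 hearts with their large spread. SRFHKO minus control was -0.36 ± 0.57 with PE and -0.26 ± 0.57 without it, with overlap.

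At day 8 Timp1 gave 20.1, 32.6, 59.4 and 29.6 in SRFHKO hearts, against 24.6 and 334 in control hearts. Replicate 2 of the control hearts was the highest of the 18 arrays, and replicate 1 lay inside the SRFHKO range. SRFHKO minus control was -1.44 ± 0.61 with both control hearts (adjusted p = 0.344), 0.39 when control replicate 2 was left out (adjusted p = 0.935) and -3.27 when control replicate 1 was (adjusted p = 0.00143). The sign of the day 8 difference thus rested on 1 heart.

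Timp2, at chr11:118301061-118355411 and the cofactor of Mmp2 activation, has 6 probe sets, of which 5 were tested. One of them, 1450040_at, had a lower mean in SRFHKO hearts in each of the 3 settings. At day 8 it gave 212, 168, 172 and 161 in SRFHKO hearts, against 265 and 225 in control hearts. At day 25 with PE it gave 184, 217 and 190.0 in SRFHKO hearts, against 207, 271 and 327 in control hearts. At day 25 without PE it gave 226, 225 and 156 in SRFHKO hearts, against 303, 239.8 and 300.1 in control hearts. The groups did not overlap at day 8 and at day 25 without PE, a pattern shared by 1 of the 23 member probe sets and 1.3% of all tested probe sets, and overlapped with PE. The differences of -0.46 ± 0.19, -0.42 ± 0.18 and -0.48 ± 0.18 did not pass by themselves (limma adjusted p = 0.323, 0.305 and 0.159).

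Averaged over these 3 settings, a comparison chosen after the data had been seen, this Timp2 probe set fell by 0.45 ± 0.10 in SRFHKO hearts (adjusted p = 0.0160). Averaged over the 2 settings of day 25 it fell by 0.45 ± 0.12 (adjusted p = 0.0371). That call was lost when any 1 of 8 arrays was left out, with adjusted p up to 0.106 without SRFHKO replicate 3 without PE, and with array brightness as a covariate (adjusted p = 0.381). Over the 3 settings 2 of 23 member probe sets passed, both lower, where 2.1% of all passed lower and 4.99% passed in all. Over the 2 settings of day 25, 1 of 23 passed, where 5.84% of all passed and 2.75% passed lower. The 3-setting call was lost with array brightness as a covariate (-0.41, adjusted p = 0.151). The other 4 tested probe sets of Timp2 had smaller averages over the 3 settings, between -0.26 ± 0.08 and -0.02 ± 0.12, and none passed. The brightest of them, 1433662_s_at, had -0.19 ± 0.08 (adjusted p = 0.192). At day 8 and at day 25 with PE, 4 of the 5 Timp2 probe sets were negative, and 1420924_at was slightly positive (0.08 and 0.05). The levels that followed 1450040_at most closely over 18 arrays were those of Mrps9 (r = 0.827), Swap70 (r = 0.807) and Sod2 (r = 0.80).

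Timp3, at chr10:86300412-86349505, has 4 tested probe sets. One of them, 1449335_at, gave 588, 935, 722 and 716 in SRFHKO hearts of day 8, against 1111 and 1065 in control hearts of day 8. At day 25 it gave 871, 879 and 1027 in SRFHKO hearts with PE, against 1198, 1256 and 1221 in control hearts with PE. It gave 1335, 1050.2 and 752 in SRFHKO hearts without PE, against 1032, 1026 and 1531 in control hearts without PE. The groups did not overlap at day 8 or with PE, and overlapped at day 25 without PE. Averaged over the 3 settings it fell by 0.40 ± 0.11 in SRFHKO hearts (limma adjusted p = 0.0423), and this was the other member probe set that passed. The call was lost when any 1 of 13 of the 18 arrays was left out, for example SRFHKO replicate 2 with PE (adjusted p = 0.0815). It was also lost with array brightness as a covariate (-0.30, adjusted p = 0.328) and with no intensity trend (adjusted p = 0.108). The replicate block (adjusted p = 0.0747), no filter (0.0545) and quantile normalization (0.0539) lost it as well. The leading probe set of Timp3, 1419089_at, had -0.27 ± 0.09 over the 3 settings and did not pass (adjusted p = 0.112), and the remaining pair had -0.09 ± 0.12 and -0.04 ± 0.11. The levels that followed 1449335_at most closely were those of Tef (r = 0.942), Foxo3 (r = 0.859) and Atp2a3 (r = 0.845), over 18 arrays.

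Timp4, at chr6:115244444-115252205, had its highest mean in control hearts without PE. Its leading probe set, 1423405_at, gave 356, 516 and 523 in SRFHKO hearts without PE, against 572, 631 and 748 in control hearts without PE. The groups did not overlap, and the difference was -0.50 ± 0.26 (limma adjusted p = 0.330). Control hearts with PE gave 361, 300.0 and 533, also below control hearts without PE, with a difference of -0.74 ± 0.26 (adjusted p = 0.336). SRFHKO hearts with PE gave 382, 345 and 368, and PE minus no PE was -0.33 ± 0.26 in SRFHKO hearts (adjusted p = 0.742). The genotype comparison without PE and the PE comparison in control hearts share the control hearts without PE. At day 8 the probe set gave 411, 341, 504 and 208 in SRFHKO hearts, against 705 and 479.9 in control hearts, a difference of -0.74 ± 0.27 (adjusted p = 0.266). The second probe set, 1450974_at, had the same signs in these 4 comparisons, between -0.71 and -0.26. The interaction of PE and genotype was 0.41 ± 0.36 for the leading probe set and did not pass (adjusted p = 0.832).

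At day 25 without PE the summed cardiomyocyte markers were 112564 to 133770 in SRFHKO hearts, against 147423 to 164566 in control hearts. With PE they were 112438 to 118544 in SRFHKO hearts, against 132500 to 158082 in control hearts. Neither pair overlapped, and 15 of the 16 markers were lower in SRFHKO hearts without PE, 3 of them past the test. The 3 were Ckm, Myl3 and Tnnc1. Without PE, 14 of 14 endothelial and 11 of 12 vascular smooth muscle and pericyte markers were also lower in SRFHKO hearts. So were 13 of 15 macrophage and monocyte markers and 8 of 15 fibroblast markers. Of the 9 mesothelial and epicardial markers, 7 were higher. With PE the Timp4 genotype differences were only -0.08 and -0.16, with overlap. The cardiomyocyte sums moved in the same direction as most probe sets of Timp2, Timp3 and Timp4. The part of any cell type in those differences was not tested.

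Lox, at chr18:52516060-52529867, had a pattern close to that of Timp1. Its leading probe set, 1416121_at, gave 138, 115 and 62.3 in SRFHKO hearts with PE, against 59.7, 53.5 and 40.4 in SRFHKO hearts without PE. In control hearts it gave 125, 107 and 116 with PE, against 50.7, 62.0 and 70.9 without PE. Hearts with PE lay above those without it in both genotypes. PE minus no PE was 0.95 ± 0.45 in SRFHKO hearts (limma adjusted p = 0.507) and 0.91 ± 0.45 in control hearts (adjusted p = 0.521). The averaged difference of 0.93 ± 0.32 did not pass over all 18 arrays (adjusted p = 0.223) and passed when only the groups of day 25 entered the fit (adjusted p = 0.0362). The second tested probe set, 1448228_at, had 0.97 ± 0.43 in SRFHKO hearts and 0.85 ± 0.43 in control hearts, again without overlap in either. Its averaged difference of 0.91 ± 0.30 did not pass over all 18 arrays (limma adjusted p = 0.206), nor in the fit of the day 25 groups.

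PE above no PE without overlap in both genotypes was met by 4 of the 23 member probe sets, those of Lox, Timp1 and the leading one of Mmp2, against 0.941% of all tested probe sets. The opposite pattern, PE below no PE in both genotypes, was met by 0 of 23, against 1.01% of all.

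At day 8 Lox gave 44.8, 68.4, 96.4 and 35.6 in SRFHKO hearts, against 47.4 and 290.0 in control hearts. Replicate 2 of the control hearts again exceeded all other arrays, and replicate 1 lay inside the SRFHKO range. SRFHKO minus control was -1.02 ± 0.48 with both control hearts (adjusted p = 0.413), 0.26 when control replicate 2 was left out (adjusted p = 0.970) and -2.31 when control replicate 1 was (adjusted p = 0.0100). The same control heart was the highest of the 18 arrays for 6 of the 23 member probe sets and for 6.13% of all tested probe sets. It was also the highest for 3 of the 15 fibroblast markers, the collagen genes Col1a1, Col1a2 and Col3a1. It was likewise the highest for 3 of the 15 macrophage and monocyte markers, Cd68, Cd14 and Lyz2. SRFHKO replicate 4 of day 8 was the highest for 5 of the 15. Control replicate 2 had a sum over them of 4963, against 3868 in the other control heart and 3335 to 4915 in SRFHKO hearts of day 8. Its fibroblast marker sum was 17785, against 15140 in the other control heart, and SRFHKO hearts of day 8 had 11529 to 14298. The part of these markers in the Lox and Timp1 values was not tested.

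Over the 18 arrays the log2 levels of Timp1 and the leading Lox probe set had a Pearson r of 0.925 and a Spearman rho of 0.866, the highest r among the 45 pairs of leading probe sets. Without control replicate 2 of day 8, r was 0.872 (n = 17), and over the 12 arrays of day 25 it was 0.868. Without the 2 arrays farthest from the median of Lox it was 0.851 (n = 16). Deviations from the group means had r = 0.877 (n = 18), and r = 0.644 without the 2 control hearts of day 8 (n = 16). The next highest pairs were Loxl1 with Mmp2 (r = 0.616), Timp2 with Timp4 (r = 0.609) and Mmp14 with Timp3 (r = 0.604). The lowest was Adamts1 with Timp2 (r = -0.53). These are descriptions over arrays that share groups and scaling.

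**Figure D3:**
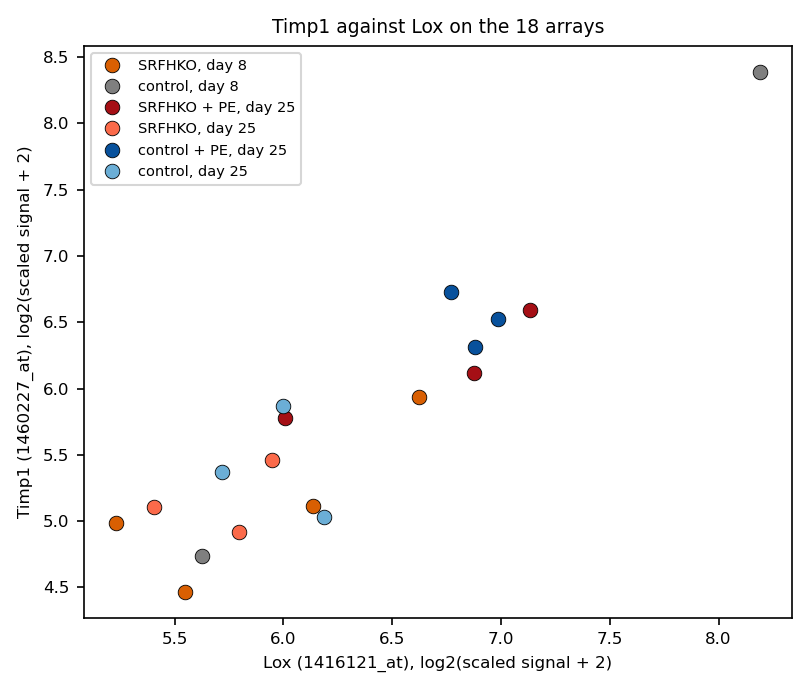
Timp1 against Lox (leading probe sets) in log2(scaled signal + 2), one point per array, coloured by group. The 18 arrays run along a rising line (r = 0.925), with 1 control heart of day 8 at the top right and 5 of the 6 hearts with PE in the range next to it.

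Loxl1, at chr9:58287723-58313212 and known for crosslinking elastin, gave 423, 432 and 307 in SRFHKO hearts with PE, against 280.2, 243 and 268 in SRFHKO hearts without PE. In control hearts the leading probe set 1451978_at gave 331, 346 and 282 with PE, against 309, 342 and 257 without PE. The SRFHKO groups did not overlap and the control groups did. PE minus no PE was 0.54 ± 0.16 in SRFHKO hearts (limma adjusted p = 0.224) and 0.08 ± 0.16 in control hearts (adjusted p = 0.901). The interaction of 0.45 ± 0.23 did not pass (adjusted p = 0.693, 95% interval -0.03 to 0.94). At day 8 it gave 461, 308, 333 and 443 in SRFHKO hearts, against 420.0 and 412 in control hearts, which overlapped. The second probe set of Loxl1, 1436063_at, was below the filter limit on 6 arrays and overlapped in every comparison of day 25. PE minus no PE was 0.25 in SRFHKO hearts and at least 0.45 in control hearts, with control hearts without PE raised to the limit. The interaction was then -0.20, opposite in sign to that of the leading probe set. The second probe set passed in none of these comparisons. At day 8 it gave 10.5 to 17.3 in the 4 SRFHKO hearts, against 27.8 and 21.5 in control hearts, without overlap, and the difference of -0.69 ± 0.63 did not pass (adjusted p = 0.747).

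The wider matrix pathway was read from 7 lists of other genes, of which 101 genes were tested, each by its leading probe set. For SRFHKO against control at day 8, 0 of 101 passed (median -0.13), against 0.0714% of the leading probe sets of all 12610 genes. At day 25 without PE 0 of 101 passed (median -0.11), against 2.21% of all genes, and with PE 0 of 101 passed (median 0.08), against 1.19%. For PE in control hearts 0 of 101 passed (median 0.05), against 0.0238% of all genes. For PE in SRFHKO hearts 2 passed, both higher (median 0.24), against 0.222% of all genes. These were the matricellular protein Postn, by 1.83 ± 0.34 (limma adjusted p = 0.0282), and the proteoglycan Bgn, by 0.81 ± 0.16 (adjusted p = 0.0491). The matrix substrates had a positive PE difference in SRFHKO hearts for 27 of 29 genes, with a median of 0.50, against 18 of 29 with a median of 0.09 in control hearts. For the other crosslinking and collagen-processing enzymes it was positive for 18 of 18 genes in SRFHKO hearts, with a median of 0.30, and for 14 of 18 in control hearts, with a median of 0.14. The median over all 12610 genes was -0.01 in SRFHKO hearts and -0.03 in control hearts. The interaction of PE and genotype passed for 0 of the 101 genes, against 0.0037% of all tested probe sets. Without PE the matrix substrates were lower in SRFHKO than in control hearts for 22 of 29 genes, with a median of -0.23. With PE they were higher for 25 of 29, with a median of 0.15. The PE comparison in SRFHKO hearts and the genotype comparison without PE share the SRFHKO hearts without PE.

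In the comparison of PE averaged over genotype, 3 of 101 pathway genes passed, all higher, against 0.73% of all genes. Postn rose by 1.62 ± 0.24 (limma adjusted p = 0.00279). The collagen prolyl hydroxylase subunits P4ha1 and P4ha2, which stabilise the collagen helix, rose by 1.28 ± 0.22 (adjusted p = 0.00799) and 0.63 ± 0.12 (adjusted p = 0.0224). In SRFHKO against control averaged over day 25, 3 of 101 passed, against 6.82% of all genes. The metalloprotease Mmp23 rose by 0.80 ± 0.16 (adjusted p = 0.00645) and Adam22 fell by 0.47 ± 0.12 (adjusted p = 0.0277). The broad protease inhibitor A2m fell by 1.41 ± 0.40 (adjusted p = 0.0436). The A2m log2 mean in SRFHKO hearts with PE was 2.61, below the filter limit of 3.58. The size of its fall thus rests in part on dim signal. At day 8 the A2m means ran the other way, 4.28 in SRFHKO hearts against 3.02 in control hearts, the latter also below the limit. For Mmp23, higher at day 25, the day 8 means were lower in SRFHKO hearts, 5.535 against 6.22 in control hearts. That difference did not pass. Over the 3 settings 2 of 101 passed, against 5.15% of all genes. Adam22 fell by 0.47 ± 0.10 (adjusted p = 0.0128) and Lrp1, an endocytic receptor that clears proteases and their inhibitors, fell by 0.24 ± 0.07 (adjusted p = 0.0438). None of the other MMP, ADAMTS or cathepsin genes on the lists passed in these 3 averaged comparisons.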

How the data were processed

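RNA of 18 ventricle samples was hybridised to Affymetrix arrays. The deposited table holds a linear intensity per probe set, made with GCOS per the submitters' processing notes. Its version, the signal algorithm and any scaling by the authors: not given in the sources used here. Total RNA was extracted with Trizol and labelled as biotinylated cRNA, per the labels' protocols.

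To compare arrays, intensities were multiplied so that all arrays had a 2% trimmed mean of 90.6 (46.6 to 148 before). Then 2 was added and log2 taken, which understates changes of dim genes. The 64 control probe sets and probe sets with a mean under the 40th percentile (log2 3.58, a scaled signal of 9.96) were left out. Names came from the platform annotation, updated with RefSeq (GRCm38.p6): 34958 probe sets had 1 symbol, 932 several and 9211 none. A gene's leading probe set is its brightest.

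One limma fit (version 3.58.1, R 4.3.3; 1 mean per group, moderated with an intensity trend) covered all 18 arrays, so groups of different size share one estimate of the spread. Two-sided p values were adjusted over 27000 probe sets (Benjamini-Hochberg), and 0.05 was the threshold. The 7 planned comparisons were genotype in 3 settings, PE in each genotype and the 2 interactions; 3 averaged ones were added after the data were seen. A difference against a group wholly below the filter limit is given as a bound against that limit. Exact permutation of 3 against 3 hearts gives p = 0.1 at best. Precision is limited by the number of arrays. The p values set each difference against a spread pooled over the hearts of all groups and moderated with the trend. They do not measure the spread of the compared hearts alone.

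The members and gene lists were chosen with earlier results of these data known. Genes outside the members were named only if a list member passed, or as the 3 levels most correlated with a member that passed. Replicate numbers did not pair the hearts: correlations of deviations lay between -0.04 and 0.07 over 14 pairs. Alternatives were quantile normalization, 2 other pseudocounts, no filter, only the groups compared, no trend, brightness as covariate, 1 probe set per gene, a replicate block and leaving out each array. The fit was tested on simulated data.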

Additional observations from a re-analysis of the deposited data

Results flagged for a closer look

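In 23 checks of the 4 SRFHKO hearts of day 8, 1 per member probe set, 3 had a heart far from the others, where chance gives about 1 in 20. SRFHKO replicate 2 was high for 2 probe sets of Timp3: 1419089_at, with a log2 level of 10.42 and the next at 10.01 (gap over range 0.859), and 1449334_at, with 8.23 and the next at 7.72 (gap over range 0.934). SRFHKO replicate 4 was low for the Timp2 probe set 1420924_at, with 6.31 and the next at 6.82 (gap over range 0.887).

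For the tested Adam12 probe set, every SRFHKO heart with PE lay above the SRFHKO hearts without PE. Every control heart with PE lay below the control hearts without PE. The same opposite moves without overlap occurred in either order for 217 of 27000 tested probe sets (0.804%). All 3 control hearts with PE were below the filter limit of 9.96, and with them raised to it the interaction was at least 1.46 on the log2 scale. The measured value was 2.39 ± 0.62 and did not pass the limma test (adjusted p = 0.454).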

How the results depend on the processing

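No member value that passed the test changed sign. Of 1940 member values under other processing, 20 changed sign, 9 newly passed and 18 lost a call; of 2208 with an array left out, 159 changed sign, 15 newly passed and 42 lost a call. The fit with 1 probe set per gene covered 12610 probe sets in place of 27000, so its counts have another base. Counts over all tested probe sets, given for the settings that moved them by over 1.5 times, were as follows. For SRFHKO against control at day 8 (46), quantile normalization gave 26, the larger pseudocount 23, no pseudocount 91, no filter 19, only the groups compared 2, 1 probe set per gene 8 and the replicate block 6. At day 25 without PE (591), only the groups compared gave 93, no trend 159, brightness as covariate 60 and 1 probe set per gene 295; with PE (251), 130, 47 and 74 for the first 3 of these. For PE in SRFHKO hearts (50), only the groups compared gave 20 and no trend 2. For PE in control hearts (7), quantile normalization and 1 probe set per gene gave 4 each, only the groups compared 14 and no trend 0; the share called higher was 85.7%, and 75% under quantile normalization. For the interaction of PE and genotype (1), 5 settings gave 0 (quantile normalization, no pseudocount, no filter, no trend, replicate block), brightness 4 and 1 probe set per gene 3. For day and genotype (11), no filter gave 6, only the groups compared 2, brightness 3, 1 probe set per gene 0 and the replicate block 5. PE averaged over genotype (149) fell to 19 with no trend. Genotype averaged over day 25 (1578) gave 813 with no trend, 160 with brightness and 996 with 1 probe set per gene; over the 3 settings (1346), 666, 271 and 704.

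Member counts moved as follows. Adam12 lost its call with PE (0 members) with only the groups compared (adjusted p = 0.123), no trend (0.0530) and brightness (0.116). PE averaged (2) gave 0 with no trend and brightness, 1 with 1 probe set per gene, and 3 with only the groups compared, where Timp1 (0.0231) and Lox 1416121_at (0.0362) joined and Mmp2 1439364_a_at was lost (0.0706). Genotype averaged over day 25 (1) gave 2 with quantile normalization and 0 with only the groups compared, no trend, brightness and 1 probe set per gene. Over the 3 settings (2), 1 probe set per gene and brightness gave 0, and no filter and no trend gave 1. The fit with 1 probe set per gene holds leading probe sets only. Timp2 1450040_at, Timp3 1449335_at and Mmp2 1439364_a_at are not leading, so their absence there is no result of that fit. The replicate numbers share only a number; with them as a replicate block, genotype averaged over day 25 stayed at 1 but lost Timp2 1450040_at (0.0552) and gained Timp2 1454677_at (0.0431), PE in SRFHKO hearts gave 1 (Mmp2, adjusted p = 0.0482) and the 3 settings 4, with both Timp4 probe sets (0.0409 and 0.0427) and without Timp3 1449335_at (0.0747). The cause of the other moves was not tested.

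With single arrays left out, counts over all probe sets and members ran between 7 and 380 (members 0 to 3) for SRFHKO against control at day 8, the upper ends without control replicate 1; 92 and 748 (0 to 1) at day 25 without PE, the ends without SRFHKO replicates 3 and 1; 48 and 305 (0 to 1) with PE, the lower end without SRFHKO replicate 2; 2 and 116 (members 0) for PE in SRFHKO hearts, the ends without replicates 2 and 1 with PE; 4 and 17 (members 0) for PE in control hearts, the ends without replicates 2 and 1 without PE; 0 and 3 (members 0) for PE and genotype; 3 and 80 (0 to 2) for day and genotype, the upper end without control replicate 1 of day 8; 64 and 239 (0 to 2) for PE averaged; 939 and 1679 (0 to 3) for genotype averaged over day 25; and 812 and 1476 (1 to 4) over the 3 settings. Signal near the filter limit, as for Adam12, limits what these arrays can resolve.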
